A study of Mus musculus with 6 samples.

Results

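Junctions seen only in cKO libraries are exon-exon joins that the aligner listed with 5 or more reads in each of 3 libraries from mice lacking RBM17 in Purkinje neurons and with no read in any of 3 control libraries. There were 2093 of them among 419327 junctions listed in at least 1 of the 6 libraries. Because the read counts chose them, their presence in cKO and absence from control is a description and carries no test. They were chosen by these read counts alone. The mice were C57BL/6 and 4 weeks old, and each library came from 1 cerebellum. Ribosome-bound RNA was pulled down through a tagged ribosomal protein that only the targeted cell type makes (BacTRAP). All 6 mice carried Pcp2-BacTrap, so the Pcp2 promoter, which is active mainly in Purkinje neurons, placed the tag. Control mice were Pcp2-BacTrap; Rbm17 f/+ with no Cre, and cKO mice were Pcp2-BacTRAP; Pcp2-Cre; Rbm17 f/-, so the groups also differed by the Cre transgene and by the other Rbm17 allele, - in place of +, wherever Cre is not active. Those differences cannot be told apart from loss of RBM17 in Purkinje neurons. Each group had 3 animals.

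RBM17 (SPF45) is an RNA-binding protein of the early spliceosome that takes part in the choice of 3' splice sites. An intron begins at a donor, usually GT, and ends at an acceptor, usually AG preceded by a stretch of pyrimidines. A cryptic site is a stretch of RNA that resembles a splice site but is normally passed over, and its use can trim an exon, extend it into the intron or add an exon that the gene's usual transcripts lack. Purkinje neurons are the output cells of the cerebellar cortex.

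The targeted gene followed its label. Rbm17 had 41.2, 42.5 and 41.3 CPM (gene counts scaled to a common library total) in the 3 control libraries and 25.7, 25.6 and 26.3 in the 3 cKO libraries, with no overlap between the groups. Its log2 fold change was -0.69 (SE 0.09, edgeR quasi-likelihood test with Benjamini-Hochberg adjustment, adjusted p = 0.0016). The Rbm17 junction with the largest gain of reads, chr2:11595429-11598051 on the minus strand, had 3, 1 and 1 reads in control and 137, 106 and 136 in cKO. Rbm17 itself held 0 junctions seen only in cKO.

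The sequences around the new sites show what the aligner joined. The 7 stretches that follow are new acceptors with many reads that lay inside coding exons and could be read from annotated transcripts (GENCODE M21 on GRCm38, the assembly that mm10 also names). Each is given 5' to 3' from the first base of the annotated exon to 6 bases past the new acceptor, with the AG of the new site in capitals, so everything up to and including the capitals was removed as intron. They were picked for print after their values were seen.
Car8, chr4:8183302-8183365, minus strand: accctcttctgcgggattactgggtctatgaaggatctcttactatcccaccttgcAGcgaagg
Vamp2, chr11:69089731-69089769, plus strand: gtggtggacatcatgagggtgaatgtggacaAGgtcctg
Atp5e, chr2:174462605-174462629, minus strand: ctacatccggttttcccAGatctgt
Tfg, chr16:56697525-56697596, minus strand: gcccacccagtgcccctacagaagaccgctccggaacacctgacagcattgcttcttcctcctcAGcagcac
Caprin1, chr2:103775463-103775525, minus strand: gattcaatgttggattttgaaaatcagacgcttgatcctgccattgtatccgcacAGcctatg
Hspe1, chr1:55091070-55091092, plus strand: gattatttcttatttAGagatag
Sept7, chr9:25296395-25296449, plus strand: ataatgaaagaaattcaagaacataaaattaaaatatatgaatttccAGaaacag
The bases removed numbered 58 in Car8, 33 in Vamp2, 19 in Atp5e, 66 in Tfg, 57 in Caprin1, 17 in Hspe1 and 49 in Sept7. Those of Vamp2, Tfg and Caprin1 are multiples of 3 and the other 4 are not.

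A further 5 new acceptors lay outside the annotated coding exons of their host genes and held at least 10% of the reads at their sites. Their bases could be read from annotated transcripts or promoter sequences. They are shown because they are among the most used new sites, as 20 bases up to the site and 3 past it.
Rpap2, chr5:107601936-107601958, plus strand: tttgtttgttgacttgacAGaca
Pgam5, chr5:110259835-110259857, minus strand: tttgaaaaccaacttctcAGctc
Ddx27, chr2:167024771-167024793, plus strand: gttttatgtttttgagatAGgtt
Zfp286, chr11:62787768-62787790, minus strand: tatctctcttctccatctAGtat
Gm15270, chr10:24593656-24593678, minus strand: tattcaatgttctttccaAGcat
New donors are shown for the 5 with most reads whose sequence could be read, as 3 exon bases and 6 intron bases with the first 2 intron bases in capitals.
Mpc2, chr1:165461505-165461513, plus strand: ccgGCaggt
Serf2, chr2:121450945-121450953, plus strand: cagGTagcc
Ppargc1a, chr5:51512884-51512892, minus strand: cagGTatct
Tpd52l2, chr2:181511597-181511605, plus strand: taaGTatgc
Rabl6, chr2:25585715-25585723, minus strand: ccaGTaaga
Of these donors, that of Mpc2 opened its intron with GC and the other 4 with GT. Annotated exons that gained a cKO-only junction on both sides are shown whole for 4 genes.
Uqcrh, chr4:116070737-116070757, minus strand: gaagaagaggaagaactagtg
Mpc2, chr1:165474954-165474994, plus strand: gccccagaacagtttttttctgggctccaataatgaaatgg
Rpl27, chr11:101443955-101443999, plus strand: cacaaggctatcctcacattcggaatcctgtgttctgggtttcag
Arhgef33, chr17:80347121-80347285, plus strand: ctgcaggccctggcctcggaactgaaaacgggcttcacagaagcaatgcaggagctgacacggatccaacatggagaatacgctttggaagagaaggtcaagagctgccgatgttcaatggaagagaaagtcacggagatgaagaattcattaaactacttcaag
The lengths of these exons were 21 bp in Uqcrh, 41 bp in Mpc2, 45 bp in Rpl27 and 165 bp in Arhgef33.

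Far more junctions were seen only in cKO than only in control. Of 152737 junctions with 5 or more reads in each cKO library, 1.37% were listed in no control library. The mirrored set, with 5 or more reads in each control library and none in any cKO library, held 147 of 143157 junctions, or 0.103%. At a minimum of 3 reads the counts were 3341 and 334, at 20 reads 382 and 13, and at 100 reads 37 and 2, so the cKO-only set was the larger at each minimum tried. Just inside the rule, 317 junctions had exactly 5 reads in their lowest cKO library. Just outside it, 487 had exactly 4.

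**Figure D1:**
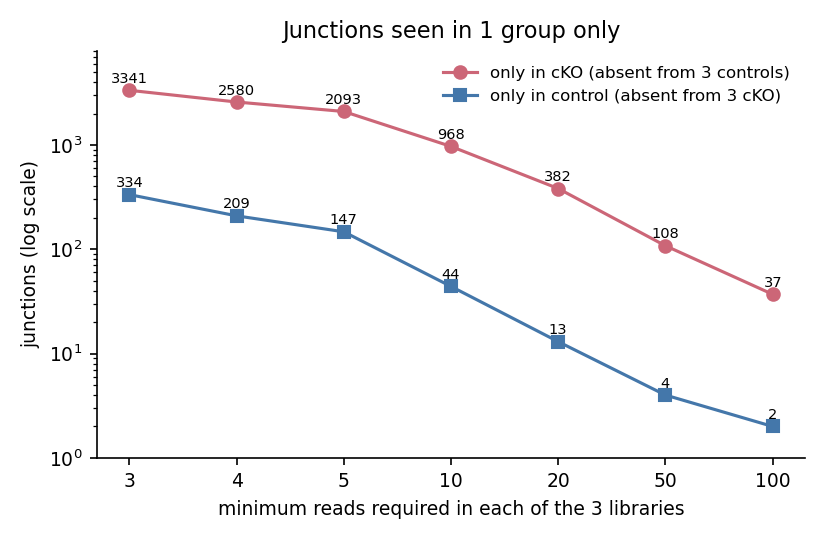
Number of junctions seen in 1 group only (y axis, log scale) against the minimum number of reads required in each of the 3 libraries of that group (x axis). The red line, junctions only in cKO, falls from 3341 to 37 and lies above the blue line, junctions only in control, which falls from 334 to 2.

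Depth was similar between the groups. The control libraries held 73796963 to 78104343 junction reads and the cKO libraries 73457422 to 83976095. The cKO libraries nevertheless listed more junctions, 244203 to 261315 against 216219 to 221820, and more that match no annotated intron, 78373 to 90831 against 55348 to 57533. Reads on cKO-only junctions numbered 72725, 60307 and 66111 in cKO replicates 1, 2 and 3, or 0.0898%, 0.0821% and 0.0787% of junction reads. Replicate 1 had the highest level, relative to junction reads, for 921 of the 2093, replicate 2 for 608 and replicate 3 for 564, and the median coefficient of variation over the 3 libraries was 40.2%. Most were thinly covered: the lowest cKO library had a median of 9 reads, with quartiles of 6 and 15.

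For most of these junctions the control libraries had reads at the same sites. A share is used here for a junction's reads as a percentage of all junction reads that use its donor or its acceptor. In 1756 of the 2093, the share that 3 reads over the control group would have made lay below the lowest share in cKO. In a further 111, control had reads but too few for that. In 226 control had none at either site, so no control share could be given. Of those, 100 were annotated introns, where the junction's absence is not distinguishable from absence of the transcript at this depth. Another 113 had both sites new, and such sites can lack reads although the gene is expressed. Agfg1 held one of these and had 147, 121 and 120 CPM in control. Among the 1756 the share in cKO had a median of 3.29%, with quartiles of 1.15% and 9.10%. It reached 10% in 404, 20% in 223 and 50% in 64. These include 132 of the 1756 with both sites new, whose share counts only reads at unannotated sites. Such a share is not a part of the gene's splicing at annotated sites. Its median over the whole class was 43.2%, against 3.31% for new acceptors. In Tmeff2 the junction leaving a new exon had a share of 80.0%, and the one entering it from an annotated donor 5.90%. The RNA was amplified before sequencing, so reads are not independent molecules and these limits cover counting error only.

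The same choice made without 1 library of each group could be checked in the libraries left out. Over the 9 such choices, 68.5% to 77.5% of the chosen junctions were listed in the cKO library left out, against 24.6% to 28.3% in the control library left out. At 5 or more reads these shares were 50.2% to 63.7% and 11.1% to 14.3%. For junctions chosen the other way, as only in control, 51.9% to 54.6% were listed in the control library left out and 42.3% to 48.0% in the cKO library left out. The order of the 2 shares was the same in every choice, in either direction. The 9 choices reuse the same libraries, so they are not separate checks. Junctions chosen as only in cKO numbered 4574 to 5871 per choice, a looser set than that of the full rule. These shares therefore describe the looser choices and are no test of the junctions seen only in cKO.

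The lists can also be all-or-none for a junction. Each library lacked between 5 and 8 junctions that had 100 or more reads in each of the other 5. At the rule's minimum of 5 reads the numbers were larger, 905, 655 and 653 for control replicates 1, 2 and 3 and 355, 495 and 415 for the cKO replicates. In Car8 a second new acceptor, at chr4:8183333-8184583, was listed with 1640 reads in cKO replicate 3 and with none in the other 5 libraries. A search on both strands found 24 cKO-only junctions with a copy of the same length moved by up to 20 bases, or on the other strand, and for 11 of them a control library listed that copy. The clearest was in Tom1l2, a gene of membrane trafficking. Its junction at chr11:60262784-60280198 on the minus strand had 68, 79 and 70 reads in cKO, while a copy 4 bases away on the plus strand had 66, 78 and 71 in control and none in cKO. Leaving out the 11 gives 2082 junctions.

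Most cKO-only junctions, 1533 of 2093, used at least 1 splice site that the annotation does not hold. New acceptors joined to an annotated donor were the largest class, with 847 junctions (40.5%), against 373 (17.8%) with a new donor joined to an annotated acceptor. Both sites were new in 313 (15.0%), both were annotated but not joined by any annotated transcript in 246 (11.8%), and 314 (15.0%) were annotated introns. Of the 147 junctions only in control, 29 (19.7%) had a new acceptor, 34 (23.1%) a new donor and 45 (30.6%) both. Of the 136579 junctions with 5 or more reads in all 6 libraries, 94.9% were annotated introns and 1.38% had a new acceptor. New acceptors thus outnumbered new donors among cKO-only junctions and not in the other 2 sets, a difference that was not tested.

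**Figure D2:**
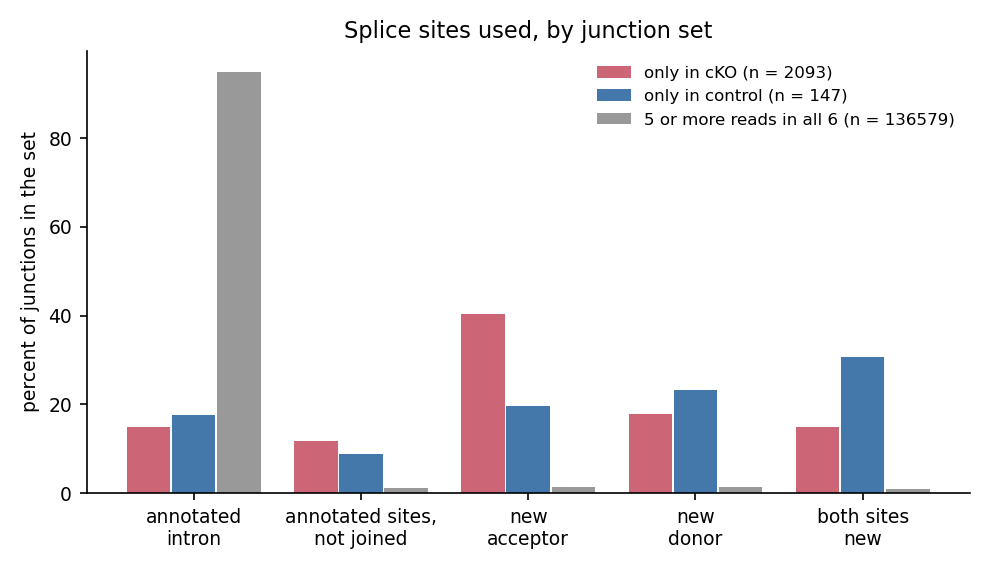
Percent of junctions (y axis) in each of 5 splice site classes (x axis) for junctions only in cKO (red, n = 2093), only in control (blue, n = 147) and with 5 or more reads in all 6 libraries (grey, n = 136579). New acceptors make up 40.5% of the red set, 19.7% of the blue and 1.38% of the grey.

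Taken as a whole set, the introns were long. Their median length was 3139 bp, with quartiles of 1046 and 16009 bp, against 2082 bp for junctions only in control and 1496 bp for those in all 6 libraries. The order differed between splice site classes. For new acceptors the medians were 2945 bp in the cKO-only and 3162 bp in the control-only set. They were 2976 and 2961 bp for new donors, 3248 and 3963 bp with both sites new, and 1850 and 677 bp for annotated introns. In the set in all libraries, new donors had 3154 bp and both sites new 6186 bp. Junctions between annotated sites that no annotated transcript joins were the longest cKO-only class. Their median was 11831 bp, against 4656 bp in the control-only set. Of these 246 junctions, 41 lay inside no gene. Introns over 100 kb made up 6.93% of the cKO-only set, 5.44% of the control-only set and 1.09% of the set in all libraries. Both end dinucleotides could be read for 239 cKO-only junctions, of which 222 were GT-AG, 8 GC-AG and 9 AT-AC. The median of the shorter of the anchors on either side was 82 bases, against 90 in the set common to all libraries, and 12 cKO-only junctions had an anchor under 20 bases.

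New acceptors lay on both sides of annotated ones. Distances were taken to the nearest annotated acceptor anywhere in the host gene, which need not be one that the same donor uses. Of the 742 inside a gene, 444 lay upstream of that nearest acceptor and 298 downstream. A downstream site can therefore lie inside an intron, measured from the acceptor of an earlier exon. In Tmeff2 a new acceptor lay 25920 bases past its nearest annotated one, with an intron of 25823 bp. The most frequent upstream position near the site was 21 to 100 bases, with 131 junctions. The equal span downstream held 40, and within 20 bases there were 28 upstream and 16 downstream. By annotation, 593 lay in introns, 95 in exon parts that do not code and 54 in coding exons. Of the 52 in coding exons and within 200 bases, 51 lay downstream, with a median shift of 35 bases. Use of such a site in place of the nearest annotated acceptor trims the start of the exon. The distance to that acceptor was a multiple of 3 in 24 of the 52.

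The bases before new acceptors were poorer in pyrimidines than those before annotated ones. In 171 of 831 distinct new acceptors the sequence could be read from annotated transcripts or promoter sequences. All 195 readable dinucleotides of junctions in this class were AG. The 18 bases before the AG had a median of 66.7% pyrimidines, against 77.8% at 18303 readable annotated acceptors and 72.2% at 595 new acceptors of the set common to all libraries. The 6 readable new acceptors of control-only junctions had a median of 63.9%, lower than the cKO-only value. The base before the AG was A in 22.8% of cKO-only new acceptors, against 5.92% and 11.3% in those sets, and the base after it was G in 27.5%, against 48.1% and 35.1%. Readable sites lie in or beside annotated exons or promoters, so they are not a sample of all new sites.

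The new acceptors with most reads were in Car8, Vamp2, Eno2, Atp5e and Pcp2. In Car8, a carbonic anhydrase-related protein that binds the IP3 receptor, the trimmed exon shown above was joined by 1872, 1728 and 2008 reads in cKO replicates 1, 2 and 3. The annotated intron from the same donor had 95399, 85611 and 102459 reads there, and 179068, 160520 and 146689 in control. The new junction's share was 1.93% ± 0.043 (SD, n = 3) in cKO. The control libraries listed no read of it, with 486310 at its sites. In Vamp2, the synaptic vesicle SNARE, the new junction at chr11:69089227-69089763 had 1723, 1731 and 1955 reads beside 48246, 48829 and 54482 on the annotated intron, a share of 3.44% ± 0.019 (SD, n = 3). Both shares varied little between animals, but so did that of the Pcp4 junction described below (31.9% ± 0.15, SD, n = 3), whose reads could be placed elsewhere. As shown above for a second Car8 acceptor, lists can be all-or-none. Whether that applies to the Car8 and Vamp2 junctions was not tested. Control had 39653, 42270 and 42283 reads on the annotated Vamp2 intron and none on the new one.

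Others followed the same form at lower counts. Eno2, the neuronal enolase, used a new acceptor 624 bases downstream of the nearest annotated one. It had 678, 482 and 629 reads, a share of 9.94% ± 1.9 (SD, n = 3). Atp5e, the epsilon subunit of ATP synthase, had 464, 491 and 566 reads on its new acceptor, a share of 4.09% ± 0.30. Pcp2, a Purkinje cell protein whose promoter also drives the tag, had 478, 458 and 504 reads, a share of 0.821% ± 0.097. Tfg, a protein of the secretory pathway, had 193, 209 and 223 reads and a share of 4.71% ± 0.70. Cdkn1a, the cell cycle inhibitor p21, had 203, 100 and 172 reads on an acceptor 43 bases into a coding exon, a share of 4.22% ± 0.66. The control libraries held from 3179 reads (Cdkn1a) to 351700 (Pcp2) at these sites, with none on the new junctions.

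**Figure D3:**
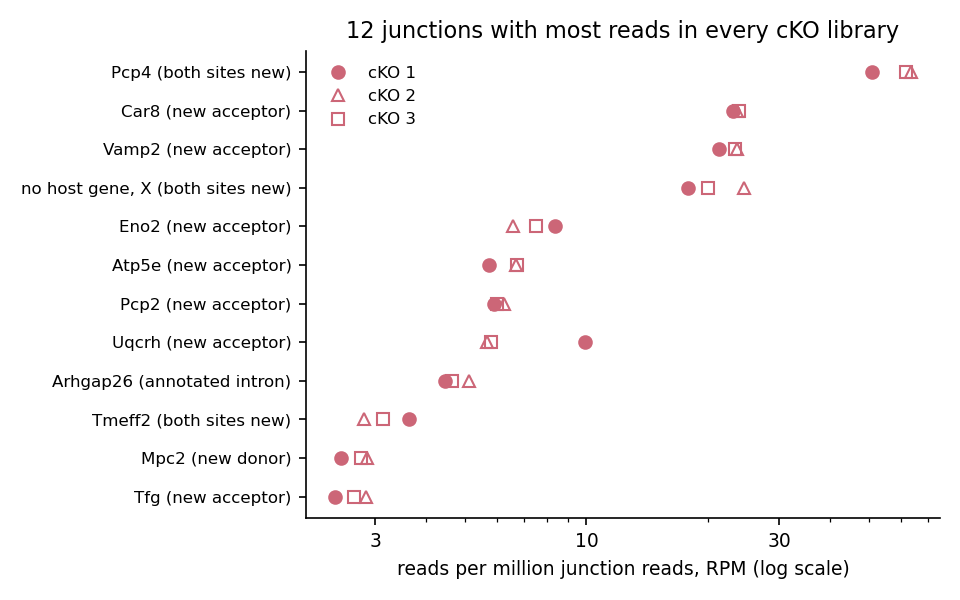
RPM, the reads relative to all junction reads of the library (x axis, log scale) in each of the 3 cKO libraries (circle, replicate 1; triangle, replicate 2; square, replicate 3) for the 12 cKO-only junctions with the highest lowest-library count, 1 per gene, with the splice site class in parentheses. Control libraries list none of them; for Uqcrh replicate 1 stands apart, with 802 reads against 417 and 487.

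Several new acceptors took a large part of the splicing at their sites. In Ddx27, a DEAD-box RNA helicase, the new acceptor had 57, 41 and 84 reads and a share of 47.6% ± 18 (SD, n = 3). Rpap2, which acts on RNA polymerase II, had 83, 57 and 49 reads and 28.7% ± 1.1. In the zinc finger gene Zfp286 the share was 29.8% ± 5.6, with 40, 43 and 44 reads. Their control depth was lower than for the genes above: 175 reads at the Ddx27 sites, 475 for Rpap2 and 269 for Zfp286, all on other junctions.

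New donors were mostly far from the nearest annotated donor of the host gene. Of 334 inside a gene, 95 lay over 1000 bases upstream and 109 over 1000 bases downstream, 282 of them lay in introns and 18 in coding exons. Within 20 bases there were 9 upstream and 5 downstream. Of 65 readable new donors, 60 were GT and 5 GC. The base at intron position 5 was G in 69.0% of 58 distinct readable sites, against 77.4% of annotated donors and 63.1% of 681 new donors in the set common to all libraries. The mitochondrial pyruvate carrier gene Mpc2 had 200, 210 and 232 reads from a donor 4 bases upstream of the annotated one to the 41 bp exon shown above, a share of 2.09% ± 0.096 (SD, n = 3). In Serf2 a donor 864 bases downstream of the nearest annotated one had 124, 143 and 127 reads and a share of 8.89% ± 2.6.

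Many of the junctions came in pairs around a short exon. A total of 469 formed 230 exons of at most 500 bp in 189 genes, each entered by 1 cKO-only junction and left by another. The exons had a median length of 82.5 bp, with quartiles of 55.3 and 134 bp, and 59 were annotated. Their length was a multiple of 3 in 76 (33.0%). The pair with most reads was in Uqcrh, the hinge protein of respiratory complex III: a new exon of 50 bp at chr4:116072176-116072225 was entered by 802, 417 and 487 reads and left by 786, 389 and 531. It was joined to the annotated exon of 21 bp shown above, which then ran on through an annotated intron with 317, 272 and 353 reads. A copy of that intron moved by 9 bases was also listed only in cKO, with 207, 221 and 219 reads. Each pair of counts was close within a library, and replicate 1 was the highest for the new exon.

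Further exons with a cKO-only junction on both sides followed at lower read counts. In Tmeff2, a transmembrane protein with EGF-like and follistatin-like domains, an exon of 201 bp was entered by 185, 196 and 156 reads and left by 295, 207 and 263. Arhgap5, a GTPase activating protein, gained one of 101 bp with 100, 80 and 84 reads on 1 side and 91, 82 and 85 on the other, a share of 1.71% ± 0.32 (SD, n = 3). The exocyst gene Exoc6b gained 29 bp with 184, 90 and 80 reads before it and 183, 82 and 80 after it. In Acbd6, an acyl-CoA binding protein, an exon of 41 bp took a share of 33.6% ± 12 with 114, 73 and 119 reads. In Snap25, a presynaptic SNARE, an exon of 72 bp had 93, 50 and 59 reads before it and 145, 103 and 81 after it, but a share of only 0.194% ± 0.058 on its donor side. The sorting nexin Snx2 used an annotated exon of 22 bp, with 129, 119 and 130 reads before it and 161, 126 and 127 after it. Of the 7 genes with pairs named here, Uqcrh included, replicate 1 had the highest count on both sides in Uqcrh, Arhgap5, Exoc6b and Snap25.

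Junctions between annotated sites that no annotated transcript joins mostly left out 1 or a few exons. Of 205 inside a gene whose exons could be counted, 100 spanned 1 annotated exon, 47 spanned 2, 20 spanned 3, 22 spanned 4 or more and 16 none. Annotated versions of 1 exon with different ends were counted separately, so these numbers are upper limits on the exons skipped. In Arhgef33, a guanine nucleotide exchange factor, a junction spanning 3 by this count had 194, 114 and 153 reads, a share of 1.03% ± 0.35 (SD, n = 3). Calb1, the calcium buffer calbindin of Purkinje neurons, skipped 1 with 91, 69 and 82 reads, a share of 0.154% ± 0.017 against none of 207866 control reads. These shares were lower than those of the other classes, with a class median of 1.42%.

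Annotated introns seen only in cKO were often from minor transcripts. Of the 314, 54 (17.2%) occur only in transcripts annotated as targets of nonsense-mediated decay or as retaining an intron, against 1.20% of the annotated introns in all 6 libraries. An annotated principal transcript contained 96 (30.6%), against 91.6%. Of the 26 annotated introns seen only in control, 10 (38.5%) were in a principal transcript and 1 (3.85%) only in transcripts of the decay or retained-intron kind. Arhgap26, a GTPase activating protein, had 361, 377 and 390 reads on an annotated intron seen only in cKO, a share of 27.2% ± 0.84 (SD, n = 3), with 5778 control reads at its sites. Phb2, a prohibitin of the inner mitochondrial membrane, had 205, 158 and 199 reads and a share of 13.8% ± 0.17, with 3061 control reads at its sites. Others lay in genes with little or no RNA in control: 87 of the 314 were in genes under 1 CPM there. Mmp12, a macrophage metalloelastase, held 6 cKO-only junctions, of which the one with most reads in its lowest library had 41, 30 and 32, with no control read at its sites.

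The junctions with both sites new include some whose reads could be placed elsewhere. Pcp4, the calmodulin-binding protein PEP-19 of Purkinje neurons, held the cKO-only junction with most reads, 4129, 4672 and 5193 at chr16:96476184-96493817. The acceptor of this junction lies 2 bases past the annotated one. Junctions from 2 other donors to the same shifted acceptor had 4132, 4674 and 5197, and 4127, 4668 and 5191 reads in cKO, within 4 reads of the first in each library. Those other junctions were listed in control as well, with 6057, 6025 and 0, and 0, 6016 and 6 reads. From the same new donor to the annotated acceptor there were 80, 42 and 74 reads in control and 490, 702 and 694 in cKO, so that junction was higher in every cKO library but is no member of the set. A junction on chromosome X in no gene, chrX:53642745-53669421, had 1446, 1801 and 1678 reads in cKO. A junction of the same length 34 bases away was listed in 1 control library (0, 1596 and 0 reads), and one 212 bases away on the minus strand was listed in all 3 (3690, 2239 and 3303). Whether the reads of both regions belong to near-identical copies was not tested.

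Of the 2093 junctions, 395 lay inside no gene on their strand, and 210 of these touched no annotated site at all. Those inside a gene made up 81.1%, against 70.1% of control-only junctions and 98.9% of those in all 6 libraries. In Agfg1 a junction with both sites new had 41, 26 and 33 reads, and no other junction in any library used either site.

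The 1698 junctions inside genes fell in 1216 host genes, of which 901 held 1, 225 held 2 and 90 held 3 or more. Most hosts were well expressed: the median control level was 62.5 CPM, against 14.1 for all genes tested, and 941 of 1128 hosts matched to the count table were at 10 CPM or more. Host levels were centred near no change. Their median log2 fold change was 0.00, against 0.01 for all genes, with quartiles of -0.20 and 0.21. Of 1119 hosts tested, 94 (8.40%) were higher in cKO and 106 (9.47%) lower, against 4.03% and 3.85% of all 16067 genes (edgeR quasi-likelihood test, adjusted p under 0.05). The gene counts and the rule come from the same 6 libraries, so nothing is read from those shares. Without control replicate 2 the host counts were 59 and 51, and without cKO replicate 3 they were 62 and 44. Lower host counts also fell to 62 and 60 without cKO replicates 1 and 2. The numbers of all genes called higher and lower also fell in every fit that left out a library, so these falls are not particular to hosts.

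Hosts were also counted by whether control had depth at the sites, which the control level of the gene itself decides. The values that follow are therefore fixed in part by that split and by the rule, and nothing is read from them. Among 1033 hosts with a junction whose control limit lay below its cKO share, 72 were higher and 104 lower, with a median log2 fold change of -0.01. Among 86 with no such junction, 22 were higher and 2 lower, with a median of 1.36. In 40 hosts whose largest share was at least 50%, the median was 0.03, with 7 higher and 5 lower. Over all genes tested, 4.03% were higher and 3.85% lower. The largest share was taken over all cKO-only junctions of a host, those with both sites new included, as in Tmeff2 (80.0%). It is therefore not the part of the gene's splicing that changed.

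Purkinje markers had the largest share of hosts among the 19 gene lists. Of 20 Purkinje marker genes, 12 were hosts (60.0%), among them Calb1, Car8, Dner, Itpr1, Pcp2, Pcp4, Pvalb and Rgs8. The share over all tested genes was 6.96%, and it was higher at higher control levels, from 2.53% under 10 CPM to 18.6% at 100 to 500 CPM and 27.1% above that. Genes of calcium and related signalling were hosts in 11 of 25 cases (44.0%), spinocerebellar ataxia genes in 9 of 27 (33.3%) and synapse and receptor genes in 12 of 40 (30.0%). The median control levels of these 4 lists were 831, 390, 160 and 263 CPM. Among Purkinje markers 13 of 20 were lower in cKO and 0 higher, against 3.85% and 4.03% of all genes tested, and their summed level was 36608 to 48613 CPM in control and 22722 to 26155 in cKO. In such pulled-down RNA, fewer Purkinje neurons and less RNA per neuron cannot be told apart. The lists overlap, and a list is described here by its count alone.

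**Figure D4:**
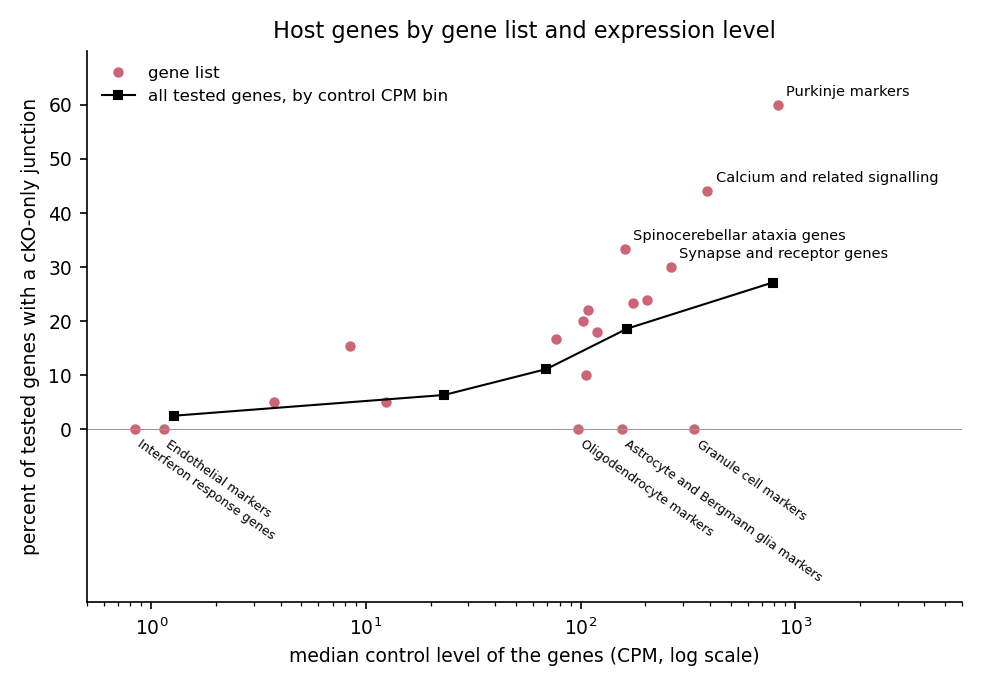
Percent of tested genes that host a cKO-only junction (y axis) against the median control level in CPM (x axis, log scale) for 19 gene lists (red points) and for all tested genes in 5 bins of control level (black line). Purkinje markers stand at 60.0% and the line rises from 2.53% to 27.1%, while 5 lists are at 0.

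Lists of other cell types held few or no hosts. None of 16 granule cell markers, 15 oligodendrocyte markers, 10 endothelial markers, 13 tested astrocyte and Bergmann glia markers and 21 interferon response genes was a tested host, though the glial gene Sept4, whose row could not be matched in the count table, held a junction with 21, 8 and 15 reads. The granule cell markers had a median control level of 338 CPM, the astrocyte and Bergmann glia markers 156 CPM and the oligodendrocyte markers 97.1 CPM. Over all tested genes, 18.6% were hosts at 100 to 500 CPM and 11.1% at 50 to 100 CPM. The endothelial, interferon response and microglia lists were far lower, at 1.14, 0.841 and 3.74 CPM. Under 10 CPM only 2.53% of all tested genes were hosts, so few or no hosts in those lists is near that share. Of 20 microglia markers only Mmp12 was a host. The summed level of that list was 77.3 to 116 CPM in control and 151 to 263 in cKO, with 11 of 20 higher against 4.03% of all genes tested, and its part in the Mmp12 junctions was not tested.

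The remaining lists lay between these. Hosts made up 7 of 30 genes of voltage-gated and other channels, 12 of 50 of cytoskeleton and motors, 11 of 50 of membrane trafficking, 10 of 50 of chromatin and transcription and 9 of 50 of the ubiquitin system. Splicing factor genes, with a median of 76.6 CPM, were hosts in 10 of 60 cases (16.7%), among them Srsf10, Tra2b, Luc7l3 and Ddx5. In Srsf10, a serine/arginine-rich splicing regulator, the junction with most reads had 30, 10 and 24 and a share of 0.766% ± 0.34 (SD, n = 3). Mitochondrial genes were hosts in 4 of 40 cases, p53 targets in 4 of 26 and DNA repair genes in 2 of 40.

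Among the named hosts, some were lower in cKO, some were higher and others did not pass the test. Car8 was at 14681, 11813 and 10943 CPM in control and 5703, 6284 and 6676 in cKO, with no overlap, and fell by 1.00 on the log2 scale (SE 0.12, edgeR adjusted p = 8.8e-04). Pcp2 fell by 1.40 (SE 0.13, edgeR adjusted p = 3.5e-04), from 1098, 1044 and 1013 CPM to 317, 421 and 459. The potassium channel gene Kcnma1 fell by 1.02 (SE 0.12) and Arhgap5 by 0.98 (SE 0.17). Cdkn1a rose from 67.0, 72.5 and 72.9 CPM to 255, 184 and 204, a log2 fold change of 1.60 (SE 0.12, edgeR adjusted p = 1.3e-04). The p53 targets Ccng1 and Aen rose by 1.20 and 1.26, each with an SE of 0.10. Vamp2, Eno2, Uqcrh and Mpc2 did not pass the test, with log2 fold changes of 0.11, 0.04, 0.11 and -0.06, nor did Itpr1 and Snap25, with larger values of -0.64 and -0.32. Pcp4 (-0.51), Calb1 (-0.57), Kcnip1 (-0.53) and Tmeff2 (-0.36) passed it, but each call was lost in at least 1 fit that left out a library, that of Pcp4 without control replicate 2.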

How the data were processed

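RNA-seq of ribosome-bound RNA was available from 6 libraries, 3 of each genotype, 1 animal each, so p-values measure the spread between these animals. Reads were aligned with TopHat2 2.1.0 to mm10 and counted with HTSeq 0.6.0, per the submitters' processing notes; neither source used here gives the annotation or the strand settings. The authors deposited whole-number read counts per junction for each library and a table of gene counts. The gene counts summed to 140110897 to 160571518 per library.

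An intron was taken from the end of the first block to the start of the second, and junctions were joined across libraries by chromosome, ends and strand. Sites were compared with the GENCODE M21 annotation. A host is a gene on the same strand that contains the junction. Sequences came from 141767 annotated transcripts and 32851 RefSeq promoter sequences. Gene counts were tested with edgeR 4.0.16 (R 4.3.3; TMM scaling, filterByExpr, quasi-likelihood test, Benjamini-Hochberg adjustment) on the 6 libraries, and DESeq2 1.42.0 was an alternative. Of the 1216 hosts, 1128 matched a row of the count table, 64 of them through another symbol. Overlapping genes and near-identical copies could share reads.

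Genes and junctions were named by rule: the 12 junctions with the highest lowest-library count, the 3 highest of each class, the 6 highest exon pairs, the 3 largest shares, and up to 3 hosts per gene list. Genes named outside it (those shown for their sequence, and Ddx27, Rpap2, Zfp286, Srsf10, Tra2b, Luc7l3, Ddx5) were chosen after their values were seen. The junctions and gene lists were chosen with earlier results of these data known. Some named items are not reported here. Selection and gene test were tested on simulated data. Alternatives were other read minima, 1 read allowed, scaled depth, strand ignored, other scalings and filters, a replicate block, and leaving out each library.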

Additional observations from a re-analysis of the deposited data

How the results depend on the processing

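The number of cKO-only junctions was 3341 at a minimum of 3 reads, 968 at 10 reads and, leaving out 1 library at a time, 2883 to 4327; that of control-only junctions was 334, 44 and 322 to 532. Dropping a library loosens the rule, so these counts rise by construction. Allowing 1 read over the other group gave 2478 and 190, scaling to the smallest library 1887 and 99, and ignoring strand 2093 and 146. Leaving out junctions with a moved copy in control, chosen after seeing the data, gave 2082. Restricting to GT-AG, GC-AG and AT-AC introns was not run, because no genome sequence was used here. Matching sites within 3 bases left 1170 of 1179 junctions in genes with a new site, and counting genes on either strand put 1744 in place of 1698 inside a gene. Genes called higher and lower numbered 647 and 618 with edgeR, 1059 and 1030 with DESeq2, and 264 to 501 and 238 to 555 without 1 library. Hosts called higher and lower numbered 94 and 106, then 142 and 152 with DESeq2, and 59 to 103 and 44 to 104 without 1 library; the cause was not tested. Same-numbered libraries did not deviate together (correlations 0.04, -0.06 and 0.02). With 3 libraries per group these values cannot settle whether the numbers pair the animals. With a replicate block 814 genes were higher and 920 lower, 129 and 137 of them hosts. Of 560 fold changes of 56 named genes under the alternatives, 534 kept their side of the threshold, 14 lost it, 12 gained it and 0 reversed a call. Junctions of few reads limit the set: 317 of 2093 have 5 reads in their lowest library.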

Other observations

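Some host genes held many cKO-only junctions. Gm4258 held 9, Dab1 and Dlg2 8 each, Rsrc2 7, and Kcnip1, Mmp12 and Rabep1 6 each. Dab1, an adaptor of reelin signalling, used donors far inside its introns, and its junction with most reads in the highest library had 68, 28 and 64 reads over an intron of 178775 bp. In Rsrc2, an arginine/serine-rich protein gene, an annotated intron had 76, 49 and 67 reads and a share of 9.68% ± 1.6 (SD, n = 3). Rabep1, an effector of the endosomal GTPase Rab5, gained an exon of 30 bp, entered by 93, 60 and 61 reads and left by 81, 62 and 63. In Ide, the insulin-degrading enzyme, a new exon of 39 bp had 218, 96 and 71 reads before it and 214, 92 and 74 after it, with a share of 35.8% ± 10. Replicate 1 was far above the other cKO libraries there. These genes were chosen after their values were seen.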
